A study of Equus asinus with 2 samples.

Results

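HOX genes are homeobox transcription factors that lie side by side in 4 chromosomal clusters, HOXA to HOXD, and give cells their position along the body axis. Here they are all features whose deposited symbol is HOX, a cluster letter and a number. There were 39 of them among 38517 features: 11 in HOXA, 10 in HOXB, 9 in HOXC and 9 in HOXD. They were measured in 2 droplet single-cell RNA libraries of fetal donkey (Equus asinus): ovarian tissue at 8 weeks of gestation, and mesonephric plus gonadal tissue at 4 weeks. The labels do not give the number or sex of the fetuses, and they call the cell type of both libraries germ cells, while their protocol describes digested tissue and names no sort. Fat and connective tissue around the ovary was trimmed before digestion. Each stage is 1 library, so no test between the stages was possible, and stage, dissected tissue and library cannot be told apart. Every interval below is an exact 95% interval that covers counting error only.

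Within a cluster, genes at one end are switched on early and far forward in the embryo, and genes at the other end late and toward the tail, so the number in a HOX name is also a position. Genes with the same number in different clusters are paralogues. HOX proteins bind DNA with cofactors of the TALE class, the PBX, MEIS and PKNOX proteins. In the mouse the paralogues numbered 10 and 11 pattern the kidney, the genital tract and the limb, and those numbered 11 act with EYA1 and PAX2 to drive GDNF in the metanephric mesenchyme, the precursor tissue of nephrons.

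The 8-week library held 14593 barcodes and 155128130 UMIs, and the 4-week library 8938 barcodes and 122341903 UMIs. Median depth per barcode was 5877 UMIs in the 8-week library and 7728 UMIs in the 4-week library, and 38 barcode sequences occurred in both libraries. Cells were put into classes by markers, and a class is written as X-like. This placed 24.2% of the 8-week cells and 46.2% of the 4-week cells in exactly 1 class. As a check of the tissue labels, NPHS1 of podocytes was found in 0.775% of the 8-week cells and 6.26% of the 4-week cells, and germ-like cells made up 3.59% and 3.62%. Of the ovarian label, the ovarian factor FOXL2 was found in 1.41% of the 8-week cells, while AMH was found in 37.8% and SOX9, which drives Sertoli cells, in 11.1%. At 4 weeks FOXL2 was found in 1.10% of cells, AMH in 26.6% and SOX9 in 20.7%. These shares count cells with any UMI at their full depth, and the part of free RNA in the droplets was not tested. Sertoli-like cells by the marker rule made up 2.55% of the 8-week and 4.12% of the 4-week cells. The somatic gonad cells with AMH are therefore called Sertoli-like in both libraries, and the cells with STAR and CYP17A1 steroidogenic-like.

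UMIs were found for 38 of the 39 HOX genes in each library. The exception was HOXC12 with 0 UMIs, which allows up to 0.0193 counts per 1000000 UMIs (CPM) at 8 weeks and 0.0245 CPM at 4 weeks. All HOX genes together held 195 CPM (193 to 197) at 8 weeks and 390 CPM (387 to 394) at 4 weeks. UMIs are not corrected for gene length, so sums over genes are of genes as counted, and levels are compared for the same gene or sum between cells. The split of reads is uncertain where gene models overlap, which in the RefSeq annotation of the donkey they do for HOXA3 with HOXA4 to HOXA6, for HOXC4 with its neighbours up to HOXC9, for HOXC6 with HOXC8, and for HOXD9 with HOXD10.

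Over whole libraries, most HOXA and HOXB genes were lower at 8 weeks. HOXB9 had 22 UMIs at 8 weeks and 2784 at 4 weeks, HOXB8 had 7 and 1050, and HOXA11 had 6 and 685. HOXA5 stood at 2.77 CPM at 8 weeks and 22.4 CPM at 4 weeks, and HOXB6 at 0.335 and 20.4 CPM. The only HOXA or HOXB gene with an interval wholly above the 4-week level was HOXB2, at 17.5 CPM (16.9 to 18.2) at 8 weeks and 10.2 CPM (9.61 to 10.8) at 4 weeks, a ratio of 1.72 (1.61 to 1.85). HOXC and HOXD genes were mixed. HOXC4 was 15.5 CPM at both stages, HOXC8 8.6 and 8.63 CPM, and HOXD8 19.7 and 18.8 CPM. HOXD9 stood at 37.6 CPM at 8 weeks and 24.0 CPM at 4 weeks, a ratio of 1.57, HOXC5 at 2.60 and 1.68 CPM, a ratio of 1.55, and HOXD4 at 30.4 and 26.9 CPM. HOXC9, at 5.93 and 8.90 CPM, had a ratio of 0.667, and HOXD1, at 0.973 and 9.30 CPM, a ratio of 0.105. The HOXC and HOXD genes numbered 10 and 11 were lower at 8 weeks: HOXC10 stood at 1.99 CPM at 8 weeks and 11 CPM at 4 weeks, HOXD10 at 5.41 and 15.6 CPM, HOXD11 at 0.206 and 3.22 CPM, and HOXC11 had 5 and 156 UMIs. The genes numbered 12 and 13, which act at the tail end, had at most 14 UMIs in a library.

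HOX levels depended strongly on the kind of cell. Of the 6 classes with at least 50 cells in each library, stroma-like cells had the highest summed HOX level at 8 weeks and, with endothelial-like cells, at 4 weeks: 269 CPM (262 to 276, 768 cells) at 8 weeks and 306 CPM (296 to 316, 961 cells) at 4 weeks. Endothelial-like cells held 146 CPM (136 to 156, 397 cells) and 299 CPM (291 to 307, 1018 cells), and steroidogenic-like cells 111 CPM (103 to 118, 300 cells) and 198 CPM (181 to 217, 105 cells). Germ-like cells held 80.7 CPM (75.3 to 86.4, 524 cells) and 50.9 CPM (45.8 to 56.4, 323 cells). The order of stroma-like and endothelial-like cells at 4 weeks was within counting error and turned round when the highest 6% of cells by UMIs were left out (295 and 308 CPM), when abundant features were left out of the total (392 and 402 CPM), and with Leiden groups as classes. Sertoli-like cells had 32.6 CPM (29.0 to 36.4, 372 cells) at 8 weeks and 31.3 CPM (28.0 to 35.0, 367 cells) at 4 weeks. Macrophage-like cells held 59.2 CPM (52.9 to 65.9, 828 cells) and 86.6 CPM (69.6 to 107, 141 cells). With Leiden groups as classes, Sertoli-like cells stood at 55.0 and 38.0 CPM and macrophage-like cells at 75.8 and 33.1 CPM, so which class was lowest at 4 weeks depended on how classes were formed. At 4 weeks, where kidney cells were captured, distal tubule-like or duct-like cells held 1145 CPM (1051 to 1244, 40 cells), podocyte-like cells 544 CPM (509 to 580, 79 cells) and proximal tubule-like cells 392 CPM (379 to 406, 599 cells). High levels were not limited to kidney classes. Cells like coelomic or surface epithelium held 309 CPM (37 cells) at 8 weeks and 683 CPM (52 cells) at 4 weeks. Smooth muscle-like cells held 265 CPM (175 cells) and 565 CPM (48 cells). At 4 weeks 91.2% and 68.0% of the HOX UMIs of these classes came from cells in Leiden groups of another class.

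Red blood cells and macrophages come from blood-forming tissue, and free RNA in the droplets gives UMIs to cells that do not express a gene. All HOX genes together gave 0.40 and 0.700 UMIs per erythroid-like cell at 8 and 4 weeks, and 0.395 and 0.631 UMIs per macrophage-like cell. Stroma-like cells had 7.78 and 3.96 UMIs per cell for all HOX genes, endothelial-like cells 2.1 and 5.37, and Sertoli-like cells 0.825 and 0.858. After thinning every cell to 1000 UMIs, the share of stroma-like cells with a HOX UMI was 24.5% (21.5 to 27.7) at 8 weeks and 25.3% (22.6 to 28.2) at 4 weeks. The median depth of stroma-like cells before thinning was 23542 UMIs at 8 weeks and 9446 at 4 weeks, and that of endothelial-like cells 8195 and 10824. In endothelial-like cells the thinned share was 12.0% (8.94 to 15.6) at 8 weeks and 27.7% (25.0 to 30.6) at 4 weeks. It was 3.45% (0.0873 to 17.8) and 3.25% (1.57 to 5.89) in erythroid-like cells, whose median depth was 7951 and 7118 UMIs. Sertoli-like cells, at a median depth of 25404 and 24853 UMIs, had thinned shares of 1.62% (0.596 to 3.49) and 3.54% (1.90 to 5.98), and macrophage-like cells 3.36% (2.22 to 4.85) and 1.55% (0.188 to 5.49). Germ-like cells, at a median depth of 16742 and 19398 UMIs, had 6.49% (4.54 to 8.95) and 5.57% (3.34 to 8.66). The erythroid-like share at 8 weeks is 1 of 29 cells, too few to set a background there, and the part of free RNA in the HOX UMIs of Sertoli-like, macrophage-like and germ-like cells was not tested. Unthinned, 92.3% and 90.6% of cells had a HOX UMI in stroma-like, 66.2% and 88.3% in endothelial-like, 38.4% and 34.6% in Sertoli-like and 13.3% and 21.4% in erythroid-like cells. The thinning left out 5 endothelial-like cells at 8 weeks and 0 at 4 weeks, 4 and 2 stroma-like cells, 1 and 0 Sertoli-like cells, and 1 and 5 erythroid-like cells.

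**Figure D1:**
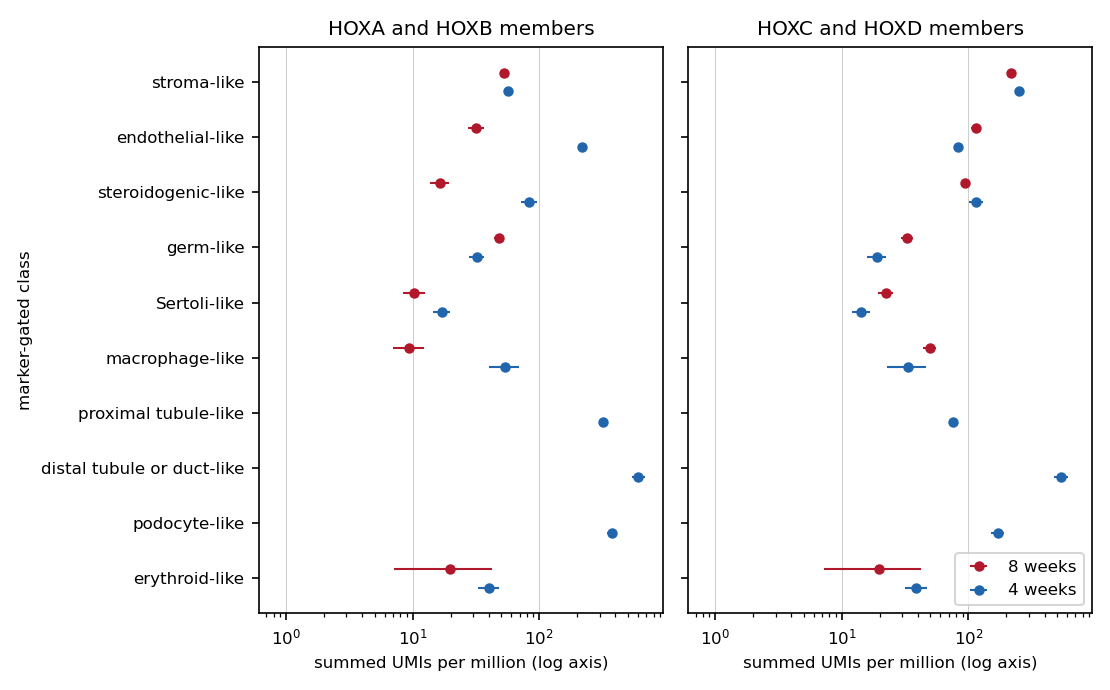
Summed level of HOXA plus HOXB and of HOXC plus HOXD (CPM, log axis), with exact 95% counting intervals and 8 weeks drawn above 4 weeks. The classes drawn are those compared between the stages, the kidney classes and erythroid-like cells, and other marker classes are not drawn. Stroma-like cells show HOXC plus HOXD well above HOXA plus HOXB at both stages, and the kidney classes at 4 weeks show HOXA plus HOXB at or above HOXC plus HOXD.

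The share of each of the 4 clusters differed between classes. In stroma-like cells HOXA, HOXB, HOXC and HOXD summed to 24.3, 28.3, 82.5 and 134 CPM at 8 weeks and to 37.7, 18.7, 91.2 and 159 CPM at 4 weeks. Most of their HOX UMIs were thus of HOXC and HOXD. In endothelial-like cells the same sums were 17.7, 14, 12.9 and 101 CPM at 8 weeks and 94.6, 122, 5.69 and 76.5 CPM at 4 weeks, so that HOXC was low at both stages and HOXA and HOXB were high at 4 weeks. HOXC gave 0.186 UMIs per endothelial-like cell at 8 weeks and 0.102 at 4 weeks, where erythroid-like cells of that library had more, 0.147 HOXC UMIs per cell. In proximal tubule-like cells at 4 weeks HOXB alone made up 51.8% of the HOX UMIs (203 CPM, against 17.2 CPM for HOXC), and in podocyte-like cells HOXA made up 47.2% (257 CPM). In distal tubule-like or duct-like cells HOXD made up 46.0% (526 CPM) and HOXC stood at 12.3 CPM, so HOXC and HOXD did not go together there or in endothelial-like cells.

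**Figure D2:**
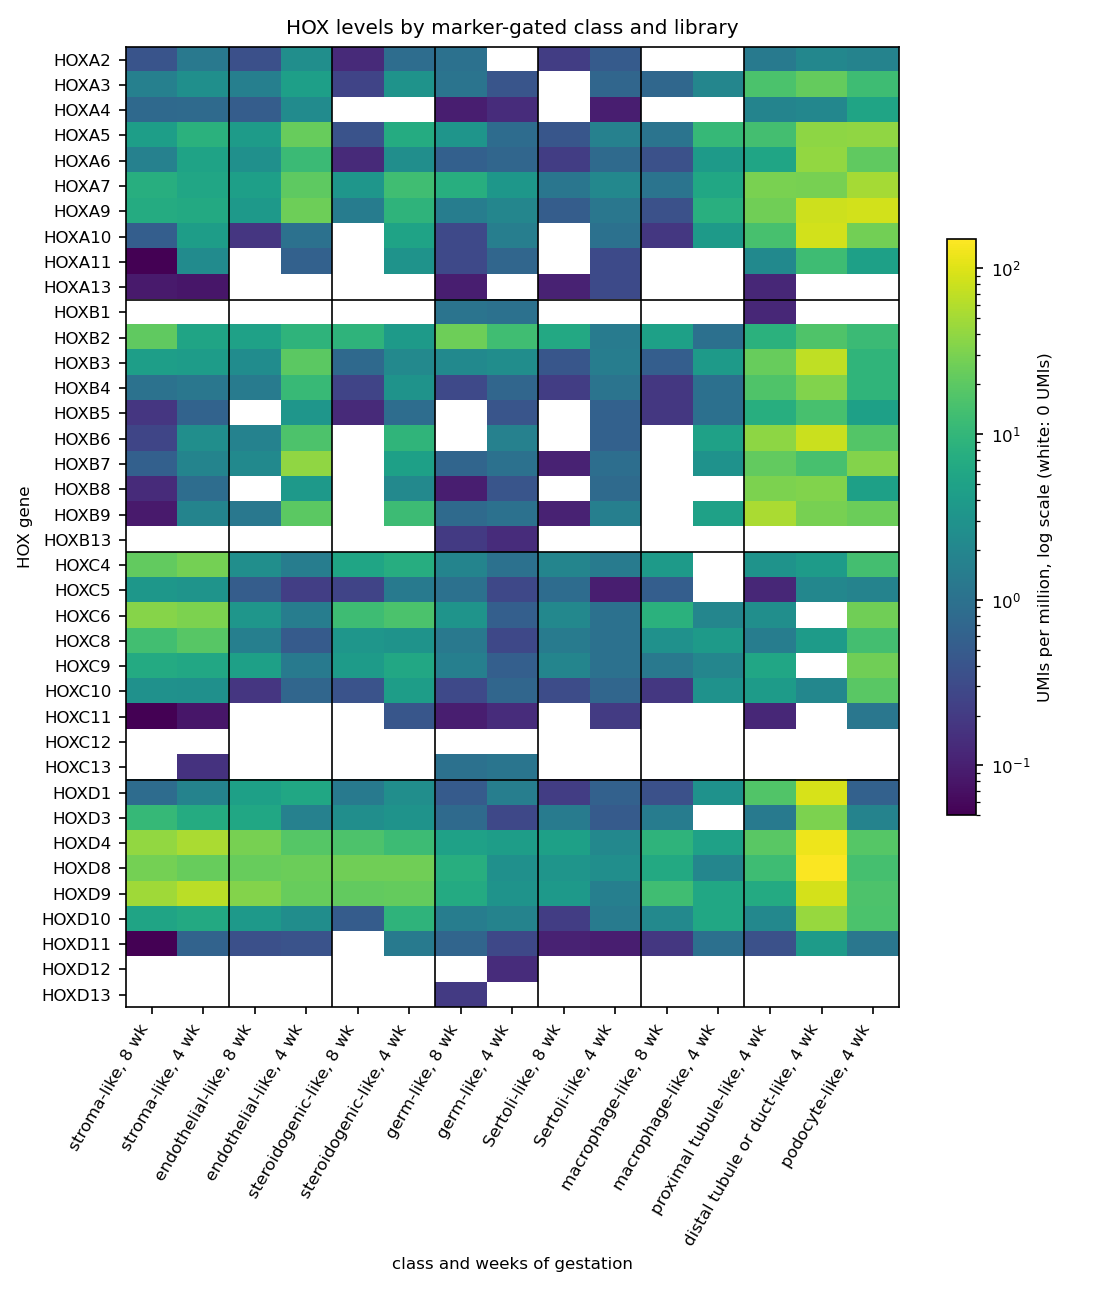
Level of 38 of the 39 HOX genes (rows, in 4 clusters) in the 6 classes compared, 8 weeks left of 4 weeks, and in the 3 kidney classes of the 4-week library (CPM, log colour scale). White marks 0 UMIs, and the genes numbered 12 and 13 are near-empty apart from HOXC13 in germ-like cells (0.984 CPM at 8 weeks and 1.12 CPM at 4 weeks). At 4 weeks HOXB3 to HOXB9 also have UMIs in stroma-like, steroidogenic-like, germ-like and Sertoli-like cells. The summed HOXB level at 4 weeks is higher in endothelial-like and kidney cells than in the other classes shown.

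Levels of the clusters were also set side by side across groups of cells that were formed without HOX genes. All cells were sorted by expression into 29 groups by the Leiden method, of which 21 had at least 50 cells at 8 weeks and, separately, 25 at 4 weeks. Across them the HOXA level followed the HOXB level, with a Spearman rho of 0.82 at 8 weeks and 0.81 at 4 weeks, and HOXC followed HOXD, with 0.83 and 0.72. For the other combinations the coefficients were lower: HOXA with HOXC 0.40 and 0.32, HOXA with HOXD 0.39 and 0.35, HOXB with HOXC 0.49 and 0.18, and HOXB with HOXD 0.50 and 0.30. The groups of cells share a library and its free RNA, so these coefficients are descriptions.

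**Figure D3:**
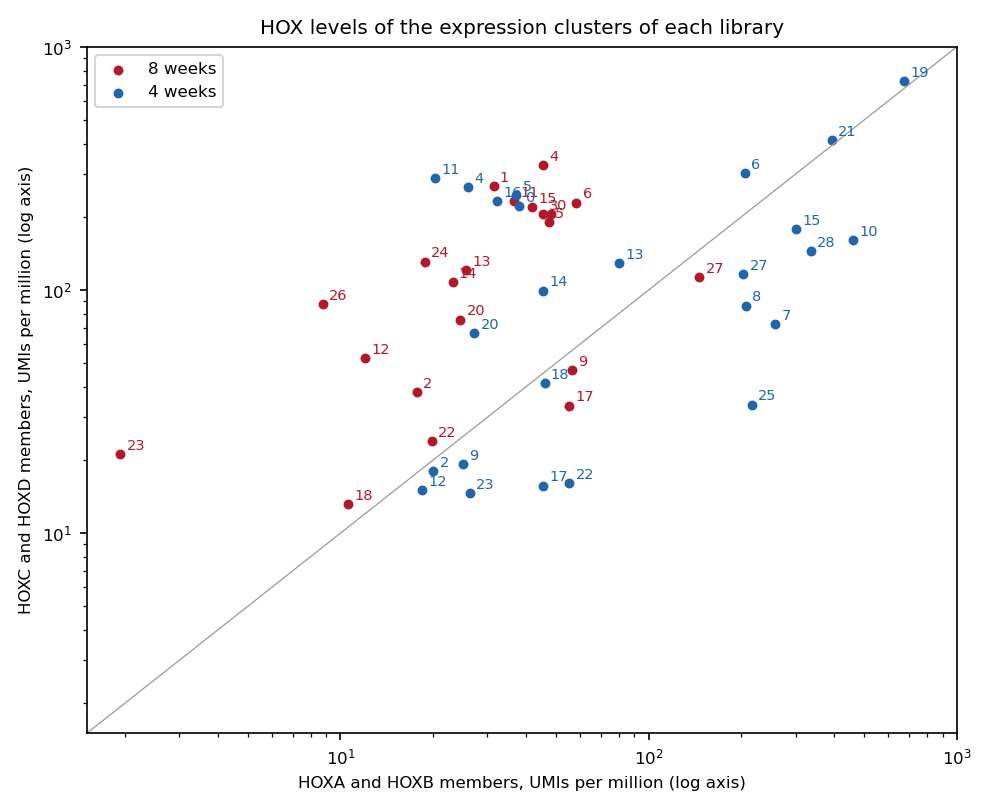
HOXC plus HOXD level against HOXA plus HOXB level (CPM, both axes log) in each Leiden group with at least 50 cells of a library, with a line at equality. Stroma-like groups lie above the line at both stages, while the endothelial-like groups 7 and 25 and the proximal tubule-like groups 8 and 10 of 4 weeks lie below it.

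In stroma-like cells, the connective tissue of the gonad and mesonephros, most HOX genes numbered 3 to 9 of HOXC and HOXD differed little between the stages. HOXD9 stood at 47.4 CPM at 8 weeks and 64.9 CPM at 4 weeks, HOXD4 at 40.9 and 54.1 CPM, and HOXC6 at 34.6 and 31.4 CPM. HOXC4 stood at 21.7 and 28.5 CPM, HOXD8 at 28.3 and 23.6 CPM, HOXC8 at 13.2 and 19 CPM, and HOXD3 at 10.7 and 6.92 CPM. The ratios of 8 to 4 weeks of these 7 genes lay between 0.694 for HOXC8 and 1.55 for HOXD3. The summed HOXC plus HOXD was 216 CPM at 8 weeks and 250 CPM at 4 weeks, a ratio of 0.865 (0.827 to 0.906). The sum over all HOX genes had a ratio of 0.878 (0.843 to 0.915), but it turned round, by 0.02 on the log2 scale, when the highest 6% of cells by UMIs were left out.

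Of the 39 HOX genes, 29 had at least 10 UMIs in stroma-like cells, and a gene could pass that limit through 1 stage alone. Among them 1 was at least 2-fold higher and 10 at least 2-fold lower at 8 weeks, where 5.45% of all 19393 features were higher and 13.3% lower. The median log2 difference was -0.40 over those 29 genes and -0.11 over all features. The higher gene was HOXB2, an anterior gene best known from the hindbrain, with 21.5 CPM at 8 weeks and 5.39 CPM at 4 weeks, a ratio of 3.99 (3.08 to 5.23). At the other end, HOXA10, which patterns the uterus and the limb in the mouse, stood at 0.539 CPM at 8 weeks and 4.34 CPM at 4 weeks, 8.05-fold lower (4.25 to 16.5). HOXA11 had 1 UMI at 8 weeks and 30 at 4 weeks, a ratio of 0.0186 (4.57e-04 to 0.112), and HOXB9 2 and 23 UMIs, 20.6-fold lower (5.08 to 180). HOXB6 stood at 0.270 and 2.65 CPM and HOXA6 at 1.71 and 5.23 CPM. Each of these had an interval wholly beyond 2-fold. The count of 10 lower genes became 6 with at least 30 UMIs and 6 with Leiden groups as classes.

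Stroma-like cells were spread differently over the Leiden groups in the libraries. At 8 weeks 41.1% of them lay in group 3, and at 4 weeks 32.4% lay in the unnamed group 16, both nearly of 1 library. In the stroma-like groups 0, 4 and 5 and the unnamed group 11, which both libraries filled, HOXA plus HOXB was higher at 8 weeks: 48.2 and 38.1 CPM, 45.3 and 25.9 CPM, 47.5 and 37.2 CPM, and 36.6 and 20.3 CPM at 8 and 4 weeks. The ratios were 1.26, 1.75, 1.28 and 1.80, with the interval for group 0 reaching below 1 (from 0.918). Over the whole class HOXA plus HOXB had a ratio of 0.933 (0.849 to 1.03). HOXB2 was higher at 8 weeks in each of these groups, 3.01-fold, 4.64-fold, 3.51-fold and 3.23-fold. HOXB without HOXB2 was not higher there beyond counting error: it stood at 3.77 and 10.5 CPM in group 0, 5.84 and 5.79 CPM in group 4, 5.50 and 11.6 CPM in group 5, and 4.93 and 6.77 CPM in group 11. Over all stroma-like cells it stood at 6.79 and 13.3 CPM, a ratio of 0.511 (0.407 to 0.642). HOXB2 itself was also 2.97-fold higher at 8 weeks in the unnamed group 6, whose leading genes are ACTA2, RGS5 and POSTN. HOXA plus HOXB as a whole stood there at 58.3 CPM at 8 weeks and 205 CPM at 4 weeks.

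Within the stroma-like cells the genes numbered 10 and 11 went with POSTN, which encodes the matrix protein periostin. At 4 weeks the 92 cells that held periostin had 62.4 CPM of these genes and 144 CPM of HOXA plus HOXB, and the 869 cells without it 9.20 and 41.7 CPM. At 8 weeks the 63 cells with periostin had 15.3 CPM of the genes numbered 10 and 11, and the 705 without it 8.36 CPM, while HOXA plus HOXB stood at 45.9 and 53.3 CPM. Stroma-like cells that held GATA4, a transcription factor of the somatic gonad, had 16.5 CPM of HOXA plus HOXB at 4 weeks (58 cells), and those without it 62.1 CPM. Their HOXC plus HOXD was 256 and 249 CPM, so that GATA4 separated these cells in HOXA and HOXB and hardly in HOXC and HOXD. The cells with GATA4 were deeper, with a median of 22206 UMIs against 9111, and the part of depth was not tested. At 8 weeks only 11 stroma-like cells held GATA4, too few to describe. Cycling stroma-like cells, which held most of MKI67, TOP2A and CDK1, were set beside those that held none of them. HOX genes summed to 254 CPM (58 cells) and 273 CPM (656 cells) at 8 weeks, and to 270 CPM (112 cells) and 319 CPM (805 cells) at 4 weeks. The cycling cells were deeper, with medians of 42277 against 19682 UMIs at 8 weeks and 14145 against 8624 at 4 weeks.

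In endothelial-like cells HOXA and HOXB were far lower at 8 weeks. HOXA plus HOXB stood at 31.7 CPM at 8 weeks and 217 CPM at 4 weeks, 6.84-fold lower (5.89 to 7.98), while HOXC plus HOXD stood at 114 and 82.2 CPM, 1.39-fold higher (1.26 to 1.52). HOXA plus HOXB gave 0.456 UMIs per endothelial-like cell at 8 weeks and 3.89 at 4 weeks, against 0.200 and 0.355 UMIs per erythroid-like cell. In the thinned cells the share with a HOXA or HOXB UMI was 2.30% (1.06 to 4.31) at 8 weeks, against 1 of 29 erythroid-like cells, and 21.9% (19.4 to 24.6) at 4 weeks, against 2.27% (0.919 to 4.63) of erythroid-like cells. Without HOXB2, HOXB was 12.4-fold lower (9.42 to 16.7) at 8 weeks, with 9.10 and 113 CPM. In steroidogenic-like cells HOXB without HOXB2 was 29.5-fold lower (14.8 to 67.0).

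Of the 29 HOX genes with at least 10 UMIs in endothelial-like cells, 4 were at least 2-fold higher and 18 at least 2-fold lower at 8 weeks, where 10.6% and 12.3% of all 18462 features were. The median log2 difference was -1.99, or -1.64 with the 4 genes at 0 UMIs at 8 weeks put at their bound, and -0.04 over all features. HOXB7, which in the mouse marks the nephric duct, stood at 2.27 CPM at 8 weeks and 39.5 CPM at 4 weeks, 17.4-fold lower (10.1 to 32.8). The level of HOXB9 was 1.22 and 19.7 CPM (16.1-fold lower, 7.72 to 40.3), and that of HOXB6 1.75 and 16.0 CPM, a ratio of 0.110 (0.0520 to 0.204). HOXA9, which is needed for the maturing of endothelial cells, stood at 3.67 and 25.7 CPM, a ratio of 0.143 (0.0877 to 0.221). HOXB8 had 0 UMIs at 8 weeks and 69 at 4 weeks, HOXB5, a regulator of endothelial precursors, 0 and 61, and HOXA11 0 and 11. The interval of the HOXA11 ratio reached up to 1.27 and so included equality. The genes named above other than HOXA11 had intervals wholly beyond 2-fold. So did HOXB3, HOXB4, HOXA5, HOXA6 and HOXA7, with 8-week over 4-week ratios from 0.124 for HOXB3 to 0.239 for HOXA6. The sole gene beyond 2-fold upward was HOXD3, which promotes the invasive state of endothelial cells, with 5.95 CPM at 8 weeks and 1.70 CPM at 4 weeks, 3.51-fold higher (2.09 to 5.90). HOXD8 differed by less than its counting error, with 23.1 and 24.6 CPM and a ratio of 0.938 (0.767 to 1.14).

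**Figure D4:**
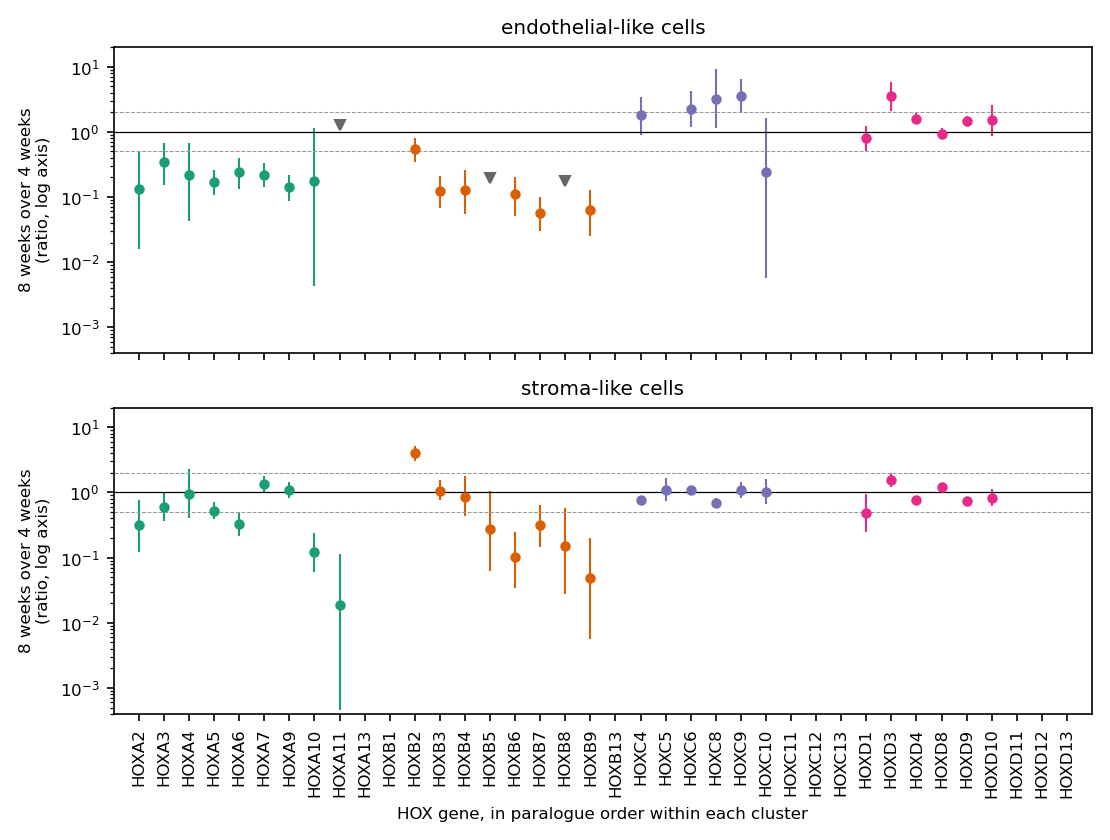
Ratio of the 8-week to the 4-week level (log axis) of the HOX genes shown with at least 10 UMIs in endothelial-like cells and in stroma-like cells, with exact 95% counting intervals and dashed lines at 2-fold. Grey triangles mark the upper interval end of genes with 0 UMIs at 8 weeks, and colours mark the clusters. In endothelial-like cells every round HOXA and HOXB point lies below 1, while most HOXC and HOXD points lie near or above it. The triangle of HOXA11 in endothelial-like cells lies above 1, at 1.27.

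The endothelial-like cells of the stages were mostly different Leiden groups: at 8 weeks 87.4% lay in group 13, and at 4 weeks 71.9% in group 7 and 7.96% in group 25, which had 2 and 0 cells at 8 weeks. Group 7 held 258 CPM of HOXA plus HOXB and group 25 held 216 CPM. In group 13, which held 545 cells at 8 weeks and 238 at 4 weeks, HOXA plus HOXB stood at 25.5 CPM at 8 weeks and 80.2 CPM at 4 weeks, a ratio of 0.318 (0.264 to 0.381), and HOXC plus HOXD at 121 and 129 CPM. HOXB7 there stood at 0.921 and 15.2 CPM, while HOXB2 was higher at 8 weeks, with 7.37 and 2.48 CPM. In group 27, led by the lymphatic genes PROX1 and STAB2, HOXA plus HOXB stood at 146 CPM at 8 weeks and 203 CPM at 4 weeks, a ratio of 0.720 (0.557 to 0.924). The difference between the stages was thus smaller within each shared group than over the class.

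Markers of other cells differed in endothelial-like cells too. The 7 stroma markers summed to 798 CPM at 8 weeks and 81.8 CPM at 4 weeks with none at 0, and the 6 pericyte markers to 171 and 23.0 CPM with none at 0. The 7 proximal tubule markers summed to 18.9 CPM at 8 weeks, with 3 at 0, SLC34A1 and HNF4A among them, and to 68.7 CPM at 4 weeks, with none at 0. In proximal tubule-like cells themselves these markers summed to 4766 CPM and HOXA plus HOXB to 316 CPM, and in endothelial-like cells of the same library to 68.7 and 217 CPM. The part of stroma RNA in the HOXC and HOXD level of endothelial-like cells was not tested.

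Steroidogenic-like cells, which make steroid hormones, also had HOXA and HOXB lower at 8 weeks. HOXA plus HOXB stood at 16.4 CPM at 8 weeks and 82.5 CPM at 4 weeks, a ratio of 0.198 (0.157 to 0.25). HOXC plus HOXD stood at 94.2 and 116 CPM, a ratio of 0.814 (0.706 to 0.940) that turned round with Leiden groups as classes (0.11 on the log2 scale) and without the highest 6% of cells by UMIs (0.08). HOXD8 stood at 26.1 and 26.8 CPM, HOXD9 at 21.8 and 22.9 CPM, HOXD4 at 15.9 and 12.1 CPM and HOXC6 at 12.3 and 15.6 CPM. All of these had intervals that included equality. HOXB9 had 0 UMIs at 8 weeks and 28 at 4 weeks, HOXB6 0 and 22, HOXA10 0 and 12, HOXB7 0 and 11, HOXA11 0 and 7, and HOXB8 0 and 5. The level of HOXD10 was 0.520 and 9.07 CPM (17.5-fold lower, 5.89 to 69.9) and that of HOXA9 was 1.43 and 9.07 CPM (6.35-fold lower, 2.93 to 14.6). HOXA3, HOXA5, HOXA6, HOXA7, HOXB4 and HOXC10 were beyond 2-fold as well, with ratios from 0.0501 for HOXA6 to 0.261 for HOXA7. Of 20 HOX genes with at least 10 UMIs, 1 was at least 2-fold higher and 11 lower, where 7.57% and 10.6% of all features were, with a median of -1.27 against -0.13 over all features. The count of 11 lower genes became 2 with at least 30 UMIs and 2 without the highest 6% of cells by UMIs, where the log2 ratio of HOXA plus HOXB was -1.30 against -2.33 with all cells, and 21 with no minimum.

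The 105 steroidogenic-like cells of 4 weeks included 5 that lay in a Leiden group of another class, and these held 13.7% of the class's HOX UMIs. Without them HOXA plus HOXB stood at 16.5 CPM at 8 weeks and 70.3 CPM at 4 weeks. Taken as Leiden group 14 instead, HOXA plus HOXB was 23.1 and 45.6 CPM, a ratio of 0.506, and HOXC plus HOXD 108 and 99.5 CPM. The 7 proximal tubule markers summed to 16.0 CPM in these cells at 8 weeks, with SLC34A1 at 0, and to 68.3 CPM at 4 weeks, with none at 0. The nephric factor PAX8 stood at 0.650 CPM at 8 weeks and 32.8 CPM at 4 weeks in the same cells. Their part in the HOX difference was not tested.

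In germ-like cells the summed HOX level was higher at 8 weeks. HOXA plus HOXB stood at 47.7 CPM at 8 weeks and 32.0 CPM at 4 weeks, 1.49-fold higher (1.27 to 1.75), and HOXC plus HOXD at 33.0 and 18.9 CPM, 1.75-fold higher (1.43 to 2.15). HOXB2 gave the most UMIs of any HOX gene in these cells, 260 at 8 weeks and 93 at 4 weeks, with levels of 25.6 and 13.0 CPM and a ratio of 1.97 (1.55 to 2.52). The rest of HOXB was lower at 8 weeks, as in the other classes: without HOXB2 it stood at 5.41 and 8.80 CPM, a ratio of 0.615 (0.420 to 0.897), while HOXA stood at 16.7 and 10.2 CPM, a ratio of 1.64 (1.24 to 2.19). HOXA7 stood at 7.48 and 3.49 CPM, and HOXD8 at 7.58 and 2.80 CPM. HOXB6 had 0 UMIs at 8 weeks and 12 at 4 weeks and was the one gene here with an interval wholly beyond 2-fold. Of 26 HOX genes with at least 10 UMIs, 12 were at least 2-fold higher and 3 lower, where 10.1% and 11.4% of all features were, with a median of 0.92 against -0.06 over all features. The count of 12 higher genes became 5 with at least 30 UMIs and 6 without the highest 6% of cells by UMIs, and that of 3 lower genes lay between 0 and 9 over the alternatives. Beside these values, the 7 stroma markers in germ-like cells summed to 582 CPM at 8 weeks and 247 CPM at 4 weeks, with none at 0 in either library, and their part in the HOX difference was not tested. Of the germ-like cells, 65 at 8 weeks and 38 at 4 weeks lay in a Leiden group of another class, and without them all HOX genes held 89.5 and 48.1 CPM. In Leiden group 9, which held most germ-like cells of both libraries, they held 103 CPM at 8 weeks and 44.2 CPM at 4 weeks, a ratio of 2.34 (2.05 to 2.67).

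Some of the rarest HOX genes had a large share of their UMIs in germ-like cells, and others did not. Of the 17 UMIs of HOXB1 at 8 weeks 11 lay there, and of the 13 at 4 weeks 7, while germ-like cells held 6.55% and 5.85% of all UMIs of the libraries. HOXB1, known from hindbrain patterning, had no UMI in any of the other 5 classes compared. HOXC13, known from hair and nail in mouse and human, had 10 of 14 and 8 of 13 UMIs in germ-like cells. HOXB13, known from the prostate, had 2 of 4 and 1 of 1. HOXA13, known from limb and genital patterning, had 1 of 10 and 0 of 6 UMIs there, HOXD12 0 of 1 and 1 of 3, and HOXD13 2 of 2 and 0 of 1. The counts are small, with HOXB1 at 1.08 CPM (0.540 to 1.94) and 0.978 CPM (0.393 to 2.02) and HOXC13 at 0.984 CPM (0.472 to 1.81) and 1.12 CPM (0.483 to 2.20). For both genes the intervals of the stages overlapped.

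In Sertoli-like cells HOXB2 stood at 6.37 CPM at 8 weeks and 1.39 CPM at 4 weeks, 4.57-fold higher (2.53 to 8.86). It gave 0.161 HOXB2 UMIs per Sertoli-like cell at 8 weeks and 0.0381 at 4 weeks, against 0.0314 and 0.00709 per macrophage-like cell. Macrophage-like cells were shallower, at a median of 5459.5 and 5843 UMIs, and at 1000 UMIs a cell the share with a HOXB2 UMI was 0.270% (0.00682 to 1.49) of Sertoli-like and 0.249% (0.0301 to 0.896) of macrophage-like cells at 8 weeks, which is 1 and 2 cells. The part of free RNA in the HOXB2 level of Sertoli-like cells was not tested. HOXA10 had 0 UMIs at 8 weeks and 10 at 4 weeks, and HOXB9 1 and 16. HOXA plus HOXB stood at 10.3 and 17.1 CPM, a ratio of 0.602 (0.464 to 0.776), and HOXC plus HOXD at 22.3 and 14.2 CPM, a ratio of 1.57 (1.26 to 1.95). Of 20 HOX genes with at least 10 UMIs, 5 were at least 2-fold higher and 10 lower, where 8.84% and 12.4% of all features were. The count of 10 lower genes lay between 0 and 20 over the alternatives, 0 with at least 30 UMIs and 1 without the highest 6% of cells, and that of 5 higher genes was 9 with Leiden groups as classes. The 7 stroma markers summed to 497 CPM at 8 weeks and 85 CPM at 4 weeks in these cells, and the 7 proximal tubule markers to 82.4 CPM, with 2 at 0, SLC34A1 among them, and 243 CPM. Their part in the HOX values was not tested.

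HOX UMIs were few in the blood classes, but the levels were not the lowest of all classes. At 4 weeks lymphoid-like cells held 95.4 CPM and erythroid-like cells 78.7 CPM, against 50.9 CPM in germ-like and 31.3 CPM in Sertoli-like cells. The macrophage-like Leiden groups 12 and 24 held 64.5 and 149 CPM at 8 weeks. In macrophage-like cells HOXA plus HOXB stood at 9.41 CPM at 8 weeks and 53.5 CPM at 4 weeks, but 6 of the 141 cells of 4 weeks lay in a Leiden group of another class and held 45 of the 89 HOX UMIs. Without them HOXA plus HOXB was 9.66 and 26.3 CPM, and all HOX genes 60.7 CPM at 8 weeks and 48.1 CPM at 4 weeks, so that the direction of the sum turned round. HOXA5 had 6 UMIs at 8 weeks and 11 at 4 weeks, HOXA9 2 and 8, HOXA10 1 and 4, HOXB6 and HOXB9 0 and 5 each, and HOXB7 0 and 3. Of 11 HOX genes with at least 10 UMIs, 5 were at least 2-fold higher and 4 lower, where 12.5% and 11.3% of all features were. Over the alternatives the higher count lay between 3 and 8 and the lower count between 0 and 16. In the 39 lymphoid-like cells of 4 weeks 35 of 44 HOX UMIs were of HOXA, the cluster known from blood progenitors, or 79.5%. Leiden group 22, in which neutrophil genes such as S100A12 and S100A9 lead, held 15.5 CPM of HOXA at 8 weeks and 48.3 CPM at 4 weeks, and 4.29 and 7.01 CPM of HOXB.

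The kidney classes were captured at 4 weeks only and are described for that library. Distal tubule-like or duct-like cells had 144 CPM of HOXD8, 121 CPM of HOXD4, 92.5 CPM of HOXD1, 90.4 CPM of HOXD9 and 86.3 CPM of HOXA10. HOXC6 and HOXC9 had 0 UMIs there. HOXD1, the most anterior gene of its cluster, stood at 16.9 CPM in proximal tubule-like cells and at 0.593 CPM in podocyte-like cells, so it differed within the nephron. Proximal tubule-like cells had 55.1 CPM of HOXB9, 39.0 CPM of HOXB6, 31.0 CPM of HOXB8 and 30.1 CPM of HOXA7. Podocyte-like cells had 87.8 CPM of HOXA9, 51.6 CPM of HOXA7, 39.7 CPM of HOXA5 and 33.8 CPM of HOXB7. HOXC9 and HOXC6 reached 26.7 and 26.1 CPM in podocyte-like cells, against 5.77 and 2.58 CPM in proximal tubule-like cells. Podocyte-like cells included 9 in Leiden groups of another class, with 37.8% of the HOX UMIs, and without them all HOX genes held 504 CPM. Of the 40 distal tubule-like or duct-like cells 2 lay in such groups, with 22.4% of the HOX UMIs. Without those 2 cells all HOX genes held 1191 CPM. Taken as Leiden group 21 instead, with 271 cells, the level was 808 CPM. UMOD, a marker of the thick ascending limb, was at 0 in distal tubule-like or duct-like cells.

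At 4 weeks Leiden group 19 had the highest HOX level of the groups with at least 50 cells, and it held 25.9% of all HOX UMIs. The proximal tubule-like group 10 held more HOX UMIs, 16808 against 12377, at a lower level of 622 CPM. Leiden group 19 had 429 cells at 4 weeks, 0 at 8 weeks, and stayed unnamed, with 421 of its cells in no marker class. All HOX genes there summed to 1401 CPM (1377 to 1426), with 443 CPM of HOXA, 233 of HOXB, 394 of HOXC and 331 of HOXD. It was 4.81% of the 4-week cells, with 7.22% of the UMIs and an interval of 25.5% to 26.3% for its HOX share. Its leading genes were EYA1, UNC13C, KIF26B, EYA4, C1QTNF12, GDNF, ROBO2, COL2A1 and HOXD10, although HOX genes were left out of the sorting. The group held 75.1% (70.6 to 79.3) of the HOXD11 UMIs of the library, 64.0% (61.8 to 66.1) of those of HOXD10, 56.3% (53.6 to 59.0) of HOXC10, 48.1% (40.0 to 56.2) of HOXC11 and 44.2% (40.5 to 48.0) of HOXA11. By contrast it held 4.29% (3.14 to 5.69) of the HOXB8 UMIs, 7.12% of HOXD1 and 7.69% of HOXB9, close to or below its share of all UMIs.

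**Figure D5:**
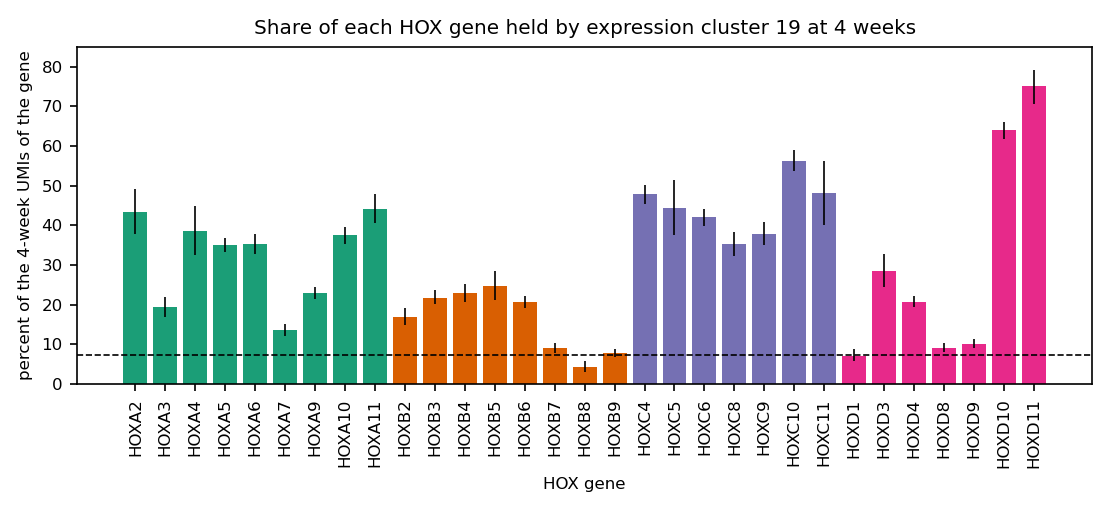
Percentage of the 4-week UMIs of a HOX gene that lay in the unnamed Leiden group 19, for the genes shown with at least 100 UMIs, with exact 95% counting intervals and a dashed line at 7.22%, the group's share of all UMIs. Bars start at 0 and colours mark the clusters; the genes numbered 10 and 11 of HOXD and HOXC stand highest and HOXB8 lowest.

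In group 19 HOXD10 stood at 138 CPM (130 to 146), HOXC10 at 85.5 CPM (79.5 to 91.8), HOXA10 at 78.1 CPM (72.4 to 84.2), HOXA11 at 34.3 CPM (30.5 to 38.4) and HOXD11 at 33.5 CPM (29.8 to 37.6). In the endothelial-like group 7 of the same library HOXD10 stood at 2.05 CPM and HOXC10 at 0.567 CPM. The genes that act with HOX11 proteins in the mouse kidney were also found there: EYA1 at 718 CPM, WT1 at 241 CPM, PAX2 at 143 CPM, GDNF at 119 CPM, SALL1 at 96.1 CPM and SIX2 at 72.7 CPM. The HOX cofactors MEIS2 and MEIS1 stood at 561 and 223 CPM in group 19. The cells were given no class name, since no marker list used here covers them.

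By paralogue number, the groups in the middle of the clusters made up most HOX UMIs in stroma-like cells, but not everywhere. In germ-like cells the genes numbered 2 had the largest share, 32.9% at 8 weeks and 25.5% at 4 weeks. In Leiden group 19 those numbered 10 had the largest sum, 301 CPM. In stroma-like cells the genes numbered 4 summed to 64.4 CPM at 8 weeks and 84.6 CPM at 4 weeks, those numbered 8 to 41.6 and 43.5 CPM, and those numbered 9 to 61.1 and 79.3 CPM. The genes numbered 11 summed to 0.135 CPM at 8 weeks and 3.14 CPM at 4 weeks, 23.3-fold lower (7.39 to 118). In endothelial-like cells the genes numbered 7 summed to 6.82 and 60.2 CPM, 8.82-fold lower (6.41 to 12.5), those numbered 5 to 4.55 and 27.1 CPM, 5.96-fold lower (4.02 to 9.22), and those numbered 4 to 33.6 and 33.1 CPM. In steroidogenic-like cells the genes numbered 10 summed to 0.910 and 18.6 CPM, 20.4-fold lower (9.11 to 53.8). The sum of number 10 therefore differed by class, as it was level in endothelial-like cells (4.20 and 4.21 CPM). That of number 4 was level in endothelial-like and also in steroidogenic-like cells (21.7 and 22.5 CPM). A level sum could hold genes that went opposite ways: in endothelial-like cells HOXB4 stood at 1.40 and 10.9 CPM and HOXD4 at 29.0 and 18.3 CPM. The genes numbered 12 had 0 UMIs at 8 weeks in all 6 classes compared and 1 UMI at 4 weeks, in germ-like cells.

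Other genes tied to HOX function were counted the same way, to be read against the share of all features at least 2-fold higher and lower: 5.45% and 13.3% in stroma-like, 10.6% and 12.3% in endothelial-like, 7.57% and 10.6% in steroidogenic-like, 10.1% and 11.4% in germ-like, 8.84% and 12.4% in Sertoli-like, and 12.5% and 11.3% in macrophage-like cells. Of the 9 TALE cofactor genes 8 were measured, and none was 2-fold higher or lower in stroma-like cells, with a median log2 difference of -0.38 against -0.11 over all features. MEIS2, which binds DNA together with HOX proteins, stood there at 381 CPM at 8 weeks and 595 CPM at 4 weeks, and MEIS1 at 204 and 264 CPM. In endothelial-like cells 1 of the 8 was higher, PKNOX2 with 10.7 and 2.79 CPM, and 1 lower, MEIS2 with 164 and 731 CPM, a ratio of 0.224 (0.209 to 0.239). In germ-like cells 2 were higher and 0 lower, among them MEIS3 with 10.6 and 2.66 CPM. In Sertoli-like and steroidogenic-like cells 2 of 8 were higher and 0 lower, and in macrophage-like cells 4 of 8 and 0. The medians were -0.19 in endothelial-like, 0.56 in germ-like, -0.42 in Sertoli-like, 0.02 in steroidogenic-like and 0.87 in macrophage-like cells.

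Polycomb proteins keep HOX clusters silent and Trithorax proteins keep them open. Of 26 Polycomb genes 1 was higher and 0 lower in endothelial-like cells, 0 and 1 in stroma-like cells, 0 and 3 in steroidogenic-like cells, 1 and 3 in Sertoli-like cells and 0 and 2 in germ-like cells. The medians were 0.04, -0.08, -0.21, -0.24 and -0.04 in the same order. In germ-like cells the 2 were AEBP2, with 47.6 CPM at 8 weeks and 105 CPM at 4 weeks, and JARID2, with 337 and 687 CPM. In macrophage-like cells 25 had at least 10 UMIs, 1 higher and 2 lower, with a median of -0.01. Of the 11 Trithorax genes and H3K27 demethylases, none passed 2-fold in germ-like, steroidogenic-like, endothelial-like or stroma-like cells, 2 were lower in Sertoli-like cells and 1 was higher in macrophage-like cells. Their medians were -0.40 in germ-like, -0.44 in steroidogenic-like, -0.19 in endothelial-like, -0.36 in stroma-like, -0.42 in Sertoli-like and -0.22 in macrophage-like cells. KMT2C stood at 187 CPM at 8 weeks and 299 CPM at 4 weeks in endothelial-like cells and at 260 and 431 CPM in stroma-like cells.

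Signals upstream of HOX genes were a list of 16 genes for CDX factors, GDF11 and retinoic acid. In endothelial-like cells 11 had at least 10 UMIs, of which 4 were higher and 3 lower at 8 weeks, with a median of -0.11. RARB, a retinoic acid receptor that retinoic acid itself induces, stood at 23.8 CPM at 8 weeks and 158 CPM at 4 weeks, and CYP26B1, which degrades retinoic acid, at 2.1 and 24.3 CPM. CRABP2, which carries retinoic acid in the cell, stood at 45.5 and 5.47 CPM, and ALDH1A2, which makes it, at 45.7 and 11.2 CPM. In stroma-like cells 2 of 11 were higher and 2 lower, with a median of 0.07, and RARB stood at 6.38 and 21.1 CPM. The counts were 2 higher and 3 lower of 14 in germ-like, 3 and 1 of 12 in Sertoli-like, 3 and 1 of 11 in steroidogenic-like, and 2 and 1 of 10 in macrophage-like cells, with medians of 0.07, -0.00, 0.27 and -0.16.

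A list of 12 nephric genes linked to HOX function held many genes that were lower at 8 weeks. Of those with at least 10 UMIs, 9 of 11 were at least 2-fold lower in steroidogenic-like cells (median -2.26; 10.6% of all features lower), 8 of 11 in endothelial-like cells (12.3% of all features lower; median -1.38, or -1.13 with genes at 0 put at their bound), 5 of 6 in macrophage-like cells (median -2.96, or -2.88), 5 of 10 in stroma-like cells (median -1.22), 5 of 11 in Sertoli-like cells (median -0.94) and 3 of 12 in germ-like cells (median -0.41). The counts that were higher were 0 in steroidogenic-like, macrophage-like and stroma-like cells, 1 in endothelial-like and Sertoli-like cells and 3 in germ-like cells. PAX8 stood at 0.350 CPM at 8 weeks and 4.76 CPM at 4 weeks in endothelial-like cells, and at 205 CPM in proximal tubule-like cells. WT1, a factor of gonad and kidney, was the gene that was higher in endothelial-like cells, with 90.3 and 24.9 CPM. Of 13 neighbouring and other antero-posterior homeobox genes, 7 had at least 10 UMIs in endothelial-like cells, with 4 higher and 1 lower and a median of 2.03. Among them MEOX2, which acts in endothelial cells, stood at 48.1 CPM at 8 weeks and 5.63 CPM at 4 weeks. In stroma-like cells 0 of 8 were higher and 1 lower (median -0.25), in germ-like cells 4 and 1 of 9 (0.84), in Sertoli-like cells 2 and 0 of 6 (0.41), in steroidogenic-like cells 1 and 1 of 6 (0.23), and in macrophage-like cells 3 and 1 of 6 (1.12).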

How the data were processed

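The deposited values are raw UMI counts per feature and barcode, not normalized, deposited by the authors; the file headers name Cell Ranger 7.1.0, and the submitters' processing notes Cell Ranger 2.1.1. The labels' protocols name a DNBelab C series droplet kit. The sources used here do not give genome build, annotation, strand or the treatment of introns. No sequences or coordinates are printed, since none of the files' build were used here.

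A minimum of 200 genes per barcode left out 3 barcodes of the 8-week library and 26 of the 4-week library. RefSeq (EquAss-T2T_v2) was used for names and overlapping models only, and gave symbols to 799 of 21981 locus identifiers; 118 of 123 class markers and 86 of 87 list genes were measured. A cell held a marker when its UMIs exceeded the library mean (Poisson p below 0.01), and belonged to a class when it held at least 3 markers of exactly 1 of 18 classes; 217 cells at 8 weeks and 267 at 4 weeks passed more than 1 class and were left out. This rule was set after the data were seen. Doublets were not called, and an alternative left out the highest 6% of cells by UMIs.

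Levels are UMIs summed over a class per 1000000 (CPM), with exact Poisson intervals; ratios have exact conditional binomial and shares Clopper-Pearson intervals, all 95%. Counts at 2-fold used 0.5 UMI added to each sum and a minimum of 10 UMIs over both libraries. A count of 0 allows up to 3 counts. Leiden groups came from 2000 variable genes without HOX or haemoglobin genes, 30 components, 20 neighbours and resolution 1.0. Genes named are the members with the most UMIs, those with intervals beyond 2-fold, those found in 1 class, and up to 4 genes a list by size of ratio. The list genes of group 19 and PAX8 were named after their values were seen. The members and lists were chosen with earlier results of these data known. The count of columns of other samples was 0. Values of a few single genes are not reported here, in text or figures, and these genes stay in the sums and counts. The fold calls and the ratio intervals were tested on simulated sums, and the gating was not tested on simulated cells. Software was Python 3.11.15, numpy 2.4.6, scipy 1.17.1, pandas 2.3.3, scanpy 1.11.5, leidenalg 0.10.2 and matplotlib 3.10.9.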

Additional observations from a re-analysis of the deposited data

Results flagged for a closer look

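The stage ratio (8 over 4 weeks) of summed HOX genes lay on opposite sides of 1 in different classes, with intervals that excluded 1. The difference between the classes was not tested, because each stage is 1 library. For all HOX genes the ratio was 1.59 in germ-like cells, and 0.558 in steroidogenic-like, 0.487 in endothelial-like, 0.683 in macrophage-like and 0.878 in stroma-like cells. For HOXA plus HOXB it was 1.49 in germ-like cells, and 0.602 in Sertoli-like, 0.198 in steroidogenic-like, 0.146 in endothelial-like and 0.176 in macrophage-like cells. For HOXC plus HOXD it was 1.75 in germ-like, 1.57 in Sertoli-like, 1.39 in endothelial-like and 1.5 in macrophage-like cells, and 0.814 in steroidogenic-like and 0.865 in stroma-like cells.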

How the results depend on the processing

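No paired analysis was possible because each stage is 1 library, and leaving out a replicate could not be run for the same reason. Levels below are CPM of all HOX genes and ratios are log2 of 8 over 4 weeks. Depth limits the rare genes: 28 of 39 members had under 10 UMIs in macrophage-like cells and 19 in Sertoli-like cells. HOXA plus HOXB stayed lower at 8 weeks in endothelial-like and steroidogenic-like cells under every alternative run, and all 165 results recomputed without the shared barcodes, a choice made after seeing the data, moved by less than their counting interval. The cause of the changes was not tested.

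With Leiden groups as classes, levels at 8 and 4 weeks were 101 and 45.7 in germ-like, 55.0 and 38.0 in Sertoli-like, 131 and 145 in steroidogenic-like and 75.8 and 33.1 in macrophage-like cells, 157 in endothelial-like cells at 8 weeks and 281 in stroma-like cells at 4 weeks. Ratios were 1.14 in germ-like, 0.53 in Sertoli-like, -0.15 in steroidogenic-like, -0.90 in endothelial-like and -0.10 in stroma-like cells, and that of macrophage-like cells reversed to 1.19. HOXA plus HOXB was -0.98 in steroidogenic-like, -2.50 in endothelial-like and 0.47 in stroma-like cells. HOXC plus HOXD reversed to 0.11 in steroidogenic-like cells, HOXA5 to 0.60 in macrophage-like cells, and HOXA2 to 0.00 and HOXA3 to 0.41 in stroma-like cells. Genes 2-fold lower numbered 0 in germ-like, 1 in macrophage-like and 6 in stroma-like cells, and genes 2-fold higher 9 in Sertoli-like, 2 in steroidogenic-like and 8 in macrophage-like cells. The thinned share was 3.70% in Sertoli-like cells at 8 weeks.

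With the highest 6% of cells left out, ratios reversed to 0.15 in macrophage-like and 0.02 in stroma-like cells, and to 0.08 for HOXC plus HOXD in steroidogenic-like cells. Other ratios were 0.35 in Sertoli-like and -0.21 in steroidogenic-like cells, -1.30 and 0.26 for HOXA plus HOXB in steroidogenic-like and stroma-like cells, and -0.03 for HOXC plus HOXD in stroma-like cells. Levels at 8 and 4 weeks were 25.8 and 20.2 in Sertoli-like and 300 and 295 in stroma-like cells, and at 4 weeks 122 in steroidogenic-like, 308 in endothelial-like and 51.5 in macrophage-like cells. Genes 2-fold higher numbered 6 in germ-like cells, and genes lower 1 in germ-like, Sertoli-like and macrophage-like cells and 2 in steroidogenic-like cells.

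With 1 marker more, levels at 4 weeks were 41.8 in germ-like and 24.1 in Sertoli-like cells, and 102 and 155 at 8 and 4 weeks in steroidogenic-like cells. Ratios were 0.90 in germ-like, 0.43 in Sertoli-like and -0.61 in steroidogenic-like cells, and -1.89 and -0.26 for HOXA plus HOXB in steroidogenic-like and stroma-like cells. Genes lower numbered 1 in germ-like and 1 in Sertoli-like cells. With cells of 2 or more classes assigned, steroidogenic-like cells had 152 at 4 weeks, -0.54 and, for HOXA plus HOXB, -1.76. With each cell counting equally, levels were 74.6 and 27.6 in germ-like and Sertoli-like cells at 8 weeks, 147 and 313 in steroidogenic-like and endothelial-like cells at 4 weeks, 40.1 and 59.2 in macrophage-like and 301 and 317 in stroma-like cells at 8 and 4 weeks. Ratios were -0.48 in steroidogenic-like and -0.08 in stroma-like cells. HOXA plus HOXB was -1.75, -3.01 and 0.04 in steroidogenic-like, endothelial-like and stroma-like cells, and HOXC plus HOXD 0.68 in endothelial-like and -0.10 in stroma-like cells.

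Without abundant features in the total, every level was higher, at 8 and 4 weeks 102 and 64.7 in germ-like, 42.1 and 40.0 in Sertoli-like, 149 and 262 in steroidogenic-like, 188 and 402 in endothelial-like, 75.9 and 114 in macrophage-like and 354 and 392 in stroma-like cells. An alternative chosen after seeing the data left out gated cells in Leiden groups of another class. It gave 89.5 in germ-like cells at 8 weeks, 27.9 in Sertoli-like and 48.1 in macrophage-like cells at 4 weeks, a germ-like ratio of 0.89, a macrophage-like ratio reversed to 0.33, and 0 genes lower in germ-like cells.

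At a fold of 1.5, genes higher numbered 7 in endothelial-like and 2 in stroma-like cells. With at least 30 UMIs, 5 were higher in germ-like and 3 in macrophage-like cells, and 0 were lower in germ-like, Sertoli-like and macrophage-like, 2 in steroidogenic-like and 6 in stroma-like cells. With no minimum, 9 were lower in germ-like, 20 in Sertoli-like, 21 in steroidogenic-like and 16 in macrophage-like cells. With at least 1000 genes per cell, 6 were lower in Sertoli-like cells. Thinned to 2000 UMIs, shares at 8 and 4 weeks were 24.2% and 44.8% in endothelial-like and 43.1% and 44.2% in stroma-like cells, and 4.59% in Sertoli-like cells at 8 weeks. Not thinned, they were 38.4% and 34.6% in Sertoli-like, 66.2% and 88.3% in endothelial-like and 92.3% and 90.6% in stroma-like cells.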
